A study of Mus musculus with 6 samples.

Results

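The expression of 10 genes tied to smooth muscle, caveolae and YAP was followed in RAW264.7 macrophages, a line transformed with the Abelson leukaemia virus. Acta2, Tagln, Myl9, Cnn1, Tpm1, Tpm2 and Cald1 encode the contractile cytoskeleton of smooth muscle, Cav1 encodes the coat protein of caveolae, and Cyr61 and Ctgf are target genes of the transcriptional coactivator YAP. The members were chosen by symbol, and all 10 were found among the 54532 genes of the deposited count table, Cyr61 and Ctgf under these older symbols for Ccn1 and Ccn2. One group of libraries came from wild-type RAW264.7 cells kept for 48 h with TTJ cells and recovered by fluorescence-activated sorting (n = 3, replicates A, B and C). The control libraries came from sorted wild-type RAW264.7 cells grown without TTJ cells (n = 3, replicates A, B and C). TTJ cells carry no functional Tsc2, the gene of an mTORC1 inhibitor that is mutated in tuberous sclerosis complex, and were established from a mouse angiomyolipoma, a tumour of vessels, smooth muscle and fat. The markers used to sort the RAW264.7 cells away from TTJ cells were not stated in the labels. No library of TTJ cells alone was analysed here, and both cultures grew in the same medium with serum. Whether replicates A, B and C were grown as separate cultures is not stated either, so every p-value below reflects variation among these libraries that may be technical.

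Smooth muscle contracts when myosin, switched on through its regulatory light chain, pulls on actin filaments that tropomyosin, caldesmon and calponin regulate. Serum response factor and its coactivators of the myocardin family switch these genes on. YAP and its relative TAZ are held in the cytoplasm by the Hippo kinases; when released they enter the nucleus, bind TEAD factors and raise genes such as Cyr61, Ctgf and Ankrd1. Caveolae are flask-shaped membrane pits built from caveolins and cavins, and are abundant in muscle, endothelium, fat and many epithelia. Angiomyolipomas and the lung disease lymphangioleiomyomatosis, which the title of the series names, are known for tumour cells that stain for smooth muscle actin.

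Start regions of the members are shown because the members' 2 best known regulators each read a short DNA word there. RefSeq (GRCm38.p6) start regions, each 250 bases before and 50 bases after a start site, were matched for 8 of the 10 members, with 10 start sites in all; Tagln and Ctgf had no entry. The TEAD word GGAATG was searched on both strands. The CArG box of serum response factor was searched as an exact match to the consensus CCWWWWWWGG (W for A or T), which reads alike on both strands. Words 1 base off this consensus were not counted, such as ccctatatgg and ccttgtttgg in the Acta2 region. No start region of a member held exact matches to both words. The TEAD word lay in 1 start region each of 4 members, 103 bases before the start site in Cyr61, 153 in Cald1, 146 in Acta2 and 56 in Tpm1, counted to the first base of the word on the strand of the gene. Of all 32851 start regions of the same length, 14.7% held the TEAD word. An exact CArG match lay in the start region of 1 member, Myl9, against 1.63% of all start regions. The 5 regions that hold a word are printed 5′ to 3′ on the strand of the gene with the word in capitals, in the order Cyr61 (chr3:145649936-145650235, minus strand), Cald1 (chr6:34598254-34598553, plus strand), Tpm1 (chr9:67049164-67049463, minus strand), Acta2 (chr19:34255324-34255623, minus strand) and Myl9 (chr2:156775214-156775513, plus strand).
Cyr61: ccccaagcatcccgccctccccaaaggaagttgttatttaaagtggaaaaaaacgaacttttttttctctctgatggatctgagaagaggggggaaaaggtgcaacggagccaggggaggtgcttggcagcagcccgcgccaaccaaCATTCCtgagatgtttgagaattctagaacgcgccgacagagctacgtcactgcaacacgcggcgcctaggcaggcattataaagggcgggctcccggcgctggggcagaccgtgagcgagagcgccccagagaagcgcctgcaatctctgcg
Cald1: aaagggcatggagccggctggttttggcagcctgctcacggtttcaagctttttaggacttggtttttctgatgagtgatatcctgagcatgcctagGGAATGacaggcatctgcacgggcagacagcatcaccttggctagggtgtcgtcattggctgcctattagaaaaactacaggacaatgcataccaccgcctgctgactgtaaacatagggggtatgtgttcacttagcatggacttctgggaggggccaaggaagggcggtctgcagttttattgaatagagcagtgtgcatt
Tpm1: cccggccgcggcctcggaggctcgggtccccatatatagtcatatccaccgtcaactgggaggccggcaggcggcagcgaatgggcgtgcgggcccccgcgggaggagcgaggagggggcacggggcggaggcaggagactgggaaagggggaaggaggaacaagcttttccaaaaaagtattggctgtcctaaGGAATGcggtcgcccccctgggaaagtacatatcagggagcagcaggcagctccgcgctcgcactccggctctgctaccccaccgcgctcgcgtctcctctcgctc
Acta2: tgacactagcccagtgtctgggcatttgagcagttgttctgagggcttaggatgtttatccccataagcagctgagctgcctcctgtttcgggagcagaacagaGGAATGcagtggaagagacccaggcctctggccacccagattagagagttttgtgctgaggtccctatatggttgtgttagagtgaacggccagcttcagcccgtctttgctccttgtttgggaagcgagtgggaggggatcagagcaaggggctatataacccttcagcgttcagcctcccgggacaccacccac
Myl9: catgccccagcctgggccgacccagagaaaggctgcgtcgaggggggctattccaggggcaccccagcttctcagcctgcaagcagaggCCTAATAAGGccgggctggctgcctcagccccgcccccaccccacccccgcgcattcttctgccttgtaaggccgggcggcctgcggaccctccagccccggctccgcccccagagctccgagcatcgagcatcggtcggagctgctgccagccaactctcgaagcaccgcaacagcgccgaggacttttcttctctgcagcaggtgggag
These letters describe the windows only. The 4 members with the TEAD word included 2 whose counts were at most 2 alone (Cyr61 and Cald1). The other 2, Tpm1 and Acta2, were already expressed in lone cells. Myl9, with its exact CArG match, had no count in any library.

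Total counts were 14329487 to 16976782 per cocultured library and 14621832 to 17358280 per lone library. The limit that a count of 0 allows, 3 counts over a group, came to 0.0639 CPM (counts relative to the TMM-scaled library size) in coculture and 0.0618 CPM alone. All 12 macrophage markers were tested, with 6 higher and 3 lower in coculture, and summed to 12558 to 12898 CPM in coculture and 11897 to 12001 CPM alone. Across all 12972 genes tested with edgeR's quasi-likelihood test, 2819 (21.7%) were higher and 1974 (15.2%) lower in coculture, 36.9% in either direction, at a Benjamini-Hochberg adjusted p under 0.05. The cocultured libraries also held transcripts of genes listed as epithelial markers, whose source was not tested. The 13 renal and simple epithelial markers summed to 337, 391 and 361 CPM in cocultured replicates A, B and C, against 0, 0.0600 and 0.115 CPM alone, with Cdh16, the kidney cadherin, at 122 ± 12.2 CPM and Krt8, a keratin of simple epithelia, at 91.8 ± 8.36 CPM in coculture and both at 0 counts alone (SD, n = 3). The part of such transcripts in the results that follow was not tested. In these bulk samples, fewer cells of a type and less RNA per cell cannot be told apart.

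The members fell into 3 kinds, those at or near 0 in both groups, those already expressed alone, and those with nearly all their counts in coculture. Of the 10, 6 passed the filter on low counts. Of these, 5 were higher in coculture (Tpm1, Cald1, Cav1, Cyr61 and Ctgf), against 21.7% of all genes tested (36.9% called in either direction), 0 were lower, and Acta2 did not pass the threshold, while Tagln, Tpm2, Cnn1 and Myl9 were too low to test. Cald1, Cav1, Cyr61 and Ctgf had 2, 1, 1 and 0 counts over the lone libraries. It was thus the cocultured libraries alone that carried them past the filter, and their direction was fixed. Their adjusted p values below, and those of further genes with at most 3 counts alone, therefore add no support to a direction. By a limit chosen after the values were seen, these 4 were among the 343 of all 54532 genes (0.629%) with at most 3 counts alone and at least 100 in coculture. The 54532 include genes too low to test. Of the 12972 genes tested, 521 had at most 3 counts alone.

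**Figure D1:**
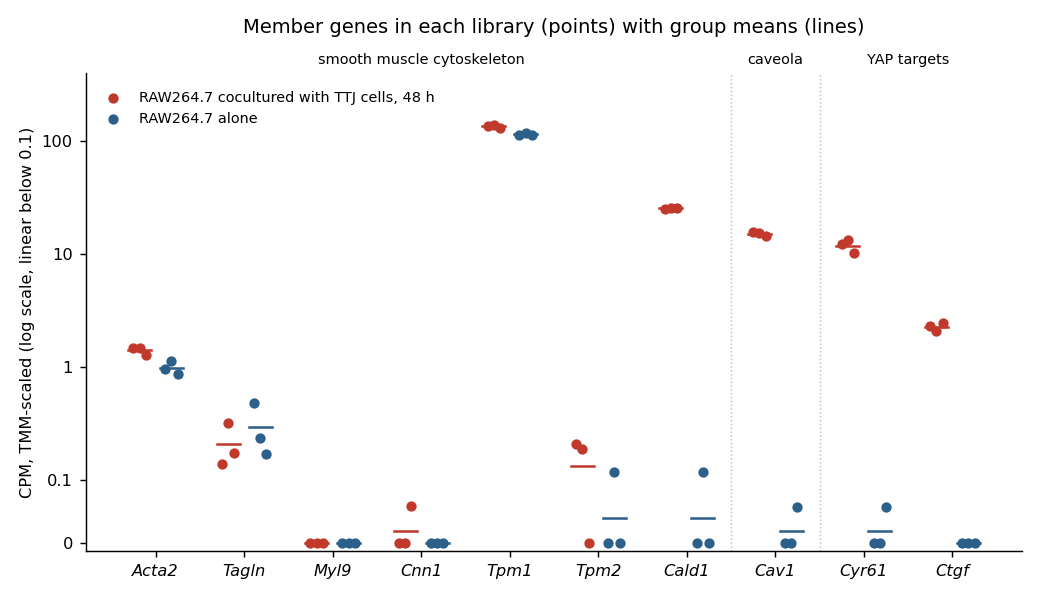
TMM-scaled CPM of the 10 genes (vertical axis, log scale, linear below 0.1) in the 3 libraries of cocultured RAW264.7 cells (red) and the 3 of RAW264.7 cells alone (blue); each point is a library and each line a group mean. Cald1, Cav1, Cyr61 and Ctgf lie between 2.11 and 25.6 CPM in coculture and at or below 0.120 CPM alone, Tpm1 is high in both groups, and Myl9 and Cnn1 lie at or near 0 in both.

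The members most specific to smooth muscle were absent or low in both groups. Acta2 encodes smooth muscle alpha actin, the marker used to stain angiomyolipoma and lymphangioleiomyomatosis cells (chromosome 19, 34241090 to 34255336, mm10). It had 21, 23 and 22 counts in coculture and 14, 19 and 15 alone. This equals 1.47, 1.47 and 1.29 CPM in coculture and 0.963, 1.14 and 0.864 CPM alone, without overlap of the groups. The difference was 0.51 on the log2 scale (SE 0.34, edgeR adjusted p = 0.268). It passed the threshold in limma fits on log2(FPKM + 1) and log2(FPKM + 0.1), with adjusted p = 0.0396 and 0.0481, and in no other alternative that kept the gene (0.230 to 0.537).

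Tagln encodes transgelin, an actin-binding protein and early smooth muscle marker also called SM22 alpha. It had 2, 5 and 3 counts in coculture and 7, 4 and 3 alone, and the groups overlapped. The ratio of counts was 0.739 (exact 95% interval 0.294 to 1.79, for counting error alone). Its reads are uncertain, because Tagln overlaps Pcsk7 and the antisense gene Gm48529 on the other strand and no source used here says whether counting was stranded.

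Myl9, the regulatory light chain of smooth muscle myosin, had 0 counts in all 6 libraries, which allows up to the 0.0639 CPM in coculture and 0.0618 CPM alone given above. Cnn1, calponin 1, a late and specific smooth muscle marker, had 1 count in cocultured replicate C and 0 in the other 5 libraries. Tpm2, the beta tropomyosin of muscle, had 3, 3 and 0 counts in coculture and 0, 2 and 0 alone, a ratio of 3.10 (0.555 to 31.4). Fitted without a filter on low counts, Tagln and Tpm2 had edgeR adjusted p values of 0.767 and 0.582. No difference was detected in these 4 genes.

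Tpm1 and Cald1, the members of broader use, were both higher in coculture but by very different amounts. Tpm1 encodes alpha tropomyosin, which makes muscle and non-muscle isoforms that a gene-level count does not separate (chromosome 9, 67022590 to 67049406). It had 135, 138 and 131 CPM in coculture and 114, 118 and 114 CPM alone. Every cocultured library lay above every lone one. The rise was 1.17-fold (log2 0.23, SE 0.047, edgeR adjusted p = 0.000413).

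Cald1 encodes caldesmon, which inhibits actomyosin and also has a smooth muscle and a non-muscle form (chromosome 6, 34598500 to 34775473). It had 358, 401 and 432 counts in coculture and 0, 2 and 0 alone. This equals 25.1, 25.6 and 25.4 CPM in coculture, a spread of 0.263 CPM (SD), against 0, 0.120 and 0 CPM alone. The ratio of counts was 616 (exact 95% interval 170 to 5091), with an edgeR adjusted p of 2.65e-18 (fitted log2 9.01). The fitted value rests on the 2 counts of lone replicate B and was 11.64 without that library.

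Of 21 further smooth muscle genes 12 were measured, 7 were higher and 0 lower, against backgrounds of 21.7% and 15.2% over all genes. Of the 12, 2 had at most 3 counts alone, so their direction was fixed. The 9 measured genes with at least 1 CPM alone gave 4 rises and a median log2 change of 0.13, beside 1926 rises (16.8%), 1968 falls (17.2%) and a median of -0.02 over 11458 such genes. Smtn, which encodes smoothelin, a cytoskeletal protein of contractile smooth muscle, had 294, 419 and 444 counts in coculture and 15, 34 and 30 alone, a 15.0-fold rise (adjusted p = 1.69e-15). Fhl2, a LIM protein of muscle that binds serum response factor, had 5.92 ± 1.23 CPM in coculture and 1 count over the lone libraries, a ratio of 288 (exact 95% interval 51.2 to 11397). Itga1, the alpha 1 chain of a collagen-binding integrin, was at least 36.2-fold higher, at 2.22 ± 0.286 CPM in coculture against 0 counts alone. Vcl, which encodes the adhesion protein vinculin, rose 1.58-fold to 60.8 ± 1.11 CPM in coculture, against 38.5 ± 1.57 CPM alone, and Pdlim7, a PDZ and LIM protein of actin filaments, rose 2.43-fold to 38.9 ± 1.21 CPM, against 16.1 ± 2.41 CPM.

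By contrast, Myh11, the smooth muscle myosin heavy chain, had 0, 4 and 9 counts in coculture and 3, 1 and 2 alone. Myocd, the myocardin gene, had 1 count over the cocultured libraries and 0 alone, and Actg2, Des and Lmod1 had 7, 6 and 1 counts over the cocultured libraries and 1, 4 and 0 over the lone ones. Of the 6 defining smooth muscle markers only Smtn could be tested, so the name smooth muscle stands here for the known role of the members and not for a phenotype seen in these libraries. Serum response factor and a relative of myocardin were present throughout. Srf was at 95.3 ± 2.45 CPM in coculture and 87.0 ± 6.38 CPM alone (log2 0.13, SE 0.056, adjusted p = 0.0623), and passed the threshold with the replicate letter as a block (adjusted p = 0.0434), with a limit of 1 CPM (0.0483) and without lone replicate A (0.0110). Mkl1, which encodes the myocardin relative MRTF-A, was at 92.2 ± 3.15 CPM in coculture and 90.8 ± 4.71 CPM alone (adjusted p = 0.790).

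Set against their paralogs, the muscle isoforms were minor components of each protein family in both groups. The deposited FPKM values, which are counts scaled by gene length and library total, were used for levels across genes. Tpm1 made up 7.38% ± 0.186 of the summed FPKM of the 4 tropomyosin genes in coculture and 6.83% ± 0.257 alone, and Tpm2 0.0161% ± 0.0140 and 0.00537% ± 0.00929. The non-muscle gene Tpm4 held 66.1% ± 0.890 in coculture and 65.7% ± 1.45 alone, and Tpm3 26.5% ± 0.706 and 27.5% ± 1.33 (SD, n = 3). Tpm4 rose 1.09-fold (adjusted p = 0.0211), and Tpm3 had an adjusted p of 0.284. The Tpm4 call was lost in some alternatives, among them those without cocultured replicate A or lone replicate B. Its adjusted p ranged from 0.0119 to 0.137 over the alternative fits. In FPKM the tropomyosin genes thus kept one order in all 6 libraries, with Tpm4 highest and Tpm2 lowest. That order and these shares depend on the gene lengths used, 6085 bases for Tpm3 and 2203 for Tpm4. In CPM, Tpm3 averaged more than Tpm4, at 454 ± 12.1 against 410 ± 15.4 in coculture and 435 ± 24.1 against 376 ± 13.3 alone.

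Acta2 contributed 0.0344% ± 0.00206 of actin FPKM in coculture and 0.0311% ± 0.00358 alone. Actb, the cytoplasmic beta actin, rose 1.28-fold to 5020 ± 102 CPM in coculture, against 3919 ± 141 CPM alone (adjusted p = 6.66e-10). Myl12a, the non-muscle counterpart of Myl9, rose 1.36-fold to 61.3 ± 2.32 CPM, against 45.0 ± 1.99 CPM (adjusted p = 2.87e-06), and Tagln2, the leukocyte transgelin, 1.29-fold to 278 ± 8.13 CPM, against 215 ± 11.3 CPM. Myl6, the essential light chain, was at 169 ± 2.25 CPM in coculture and 170 ± 1.69 CPM alone (log2 -0.01, adjusted p = 0.862). Of 15 paralogs on the list 12 were measured, with 9 rises and 0 falls, against 21.7% and 15.2% of all genes tested. Cnn2 stands on this list and on the contractile one. Of the 12, 1 had at most 3 counts alone, so its direction was fixed. Of the 10 with at least 1 CPM alone 7 rose, against 16.8% of all such genes (median log2 change 0.36 beside -0.02).

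The calponins behaved differently from the tropomyosins. Cnn3, the acidic calponin of non-muscle cells, had 22.3, 26.6 and 23.0 CPM in coculture and 0 counts in every lone library, at least 388-fold higher. Cnn2 had 163, 177 and 149 counts in coculture and 22, 19 and 12 alone, a 9.49-fold rise (adjusted p = 1.45e-11). Cnn3 held 64.9% ± 3.39 of calponin FPKM in coculture, where Cnn1 held 0.0641% ± 0.111. Myh10, the heavy chain of non-muscle myosin IIB, had 236, 325 and 296 counts in coculture and 5, 24 and 4 alone, a 26.6-fold rise whose log2 value of 4.73 became 5.97 without lone replicate B.

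**Figure D2:**
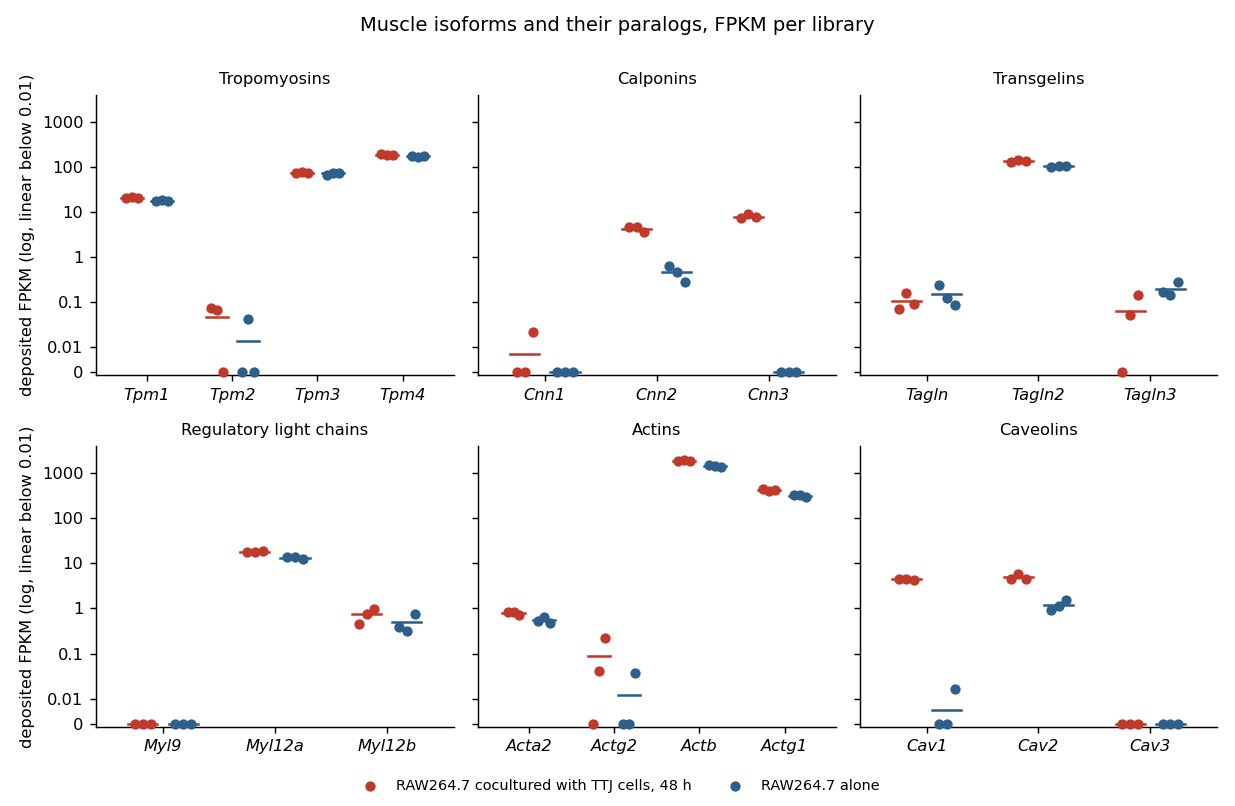
Deposited FPKM (vertical axis, log scale, linear below 0.01) of the members and their paralogs in 6 protein families, for the 3 libraries of cocultured RAW264.7 cells (red) and the 3 of RAW264.7 cells alone (blue), with lines at group means. Tpm1 lies below Tpm3 and Tpm4, Acta2 far below Actb and Actg1, and Cav1 and Cnn3 are at or near 0 in lone cells only.

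The caveolar genes that could be tested were higher in coculture. Cav1, the caveolin that builds the coat (chromosome 6, 17306335 to 17341452), had 224, 240 and 248 counts in coculture and 0, 0 and 1 alone. This equals 15.7, 15.3 and 14.6 CPM in coculture, against 0, 0 and 0.0576 CPM alone, and the groups did not overlap. The ratio was 736 (exact 95% interval 132 to 29126), with an edgeR adjusted p of 1.33e-16 (fitted log2 9.06), and the fitted value was 10.89 without lone replicate C.

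Its partners rose as well. Cav2, which needs Cav1 to reach the surface, had 218, 311 and 261 counts in coculture and 45, 63 and 90 alone, a 4.14-fold rise (adjusted p = 1.79e-10). Cav1 held 46.9% ± 3.67 of caveolin FPKM in coculture and 0.355% ± 0.615 alone, while the muscle gene Cav3 had 0 counts in all libraries. Cavin1, the cavin that caveolae require, had 588, 756 and 684 counts in coculture and 0, 2 and 1 alone, a ratio of 699 (exact 95% interval 239 to 3393). Cavin3 was at least 23.4-fold higher, at 1.49 ± 0.739 CPM in coculture against 0 counts alone. Pacsin3, a membrane-bending protein, had a ratio of 63.1 (17.1 to 527) on 122 counts in coculture and 2 alone.

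In all, 8 of the 11 further caveolar genes were measured and all 8 were higher, against 21.7% of all genes tested. Cav3, Cavin2 and Cavin4 were too low to test. Of the 8, 3 had at most 3 counts alone. The 5 with at least 1 CPM alone also all rose, against 16.8% of all such genes, with a median log2 change of 0.59 beside -0.02. Ehd2, an ATPase at the caveolar neck, rose 2.77-fold to 54.0, 55.1 and 56.9 CPM in coculture, against 20.6, 20.8 and 18.7 CPM alone. The list includes Flot1, Flot2 and Pacsin2, which act outside caveolae as well. The summed epithelial markers given above were also higher in the cocultured libraries, and their part in the caveolar rises was not tested.

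Cyr61 and Ctgf, the secreted matricellular proteins of the CCN family, were detected in every cocultured library. Cyr61 (chromosome 3, 145646976 to 145649981) had 174, 207 and 175 counts in coculture and 0, 0 and 1 alone. This equals 12.2, 13.2 and 10.3 CPM in coculture, against 0, 0 and 0.0576 CPM alone. The ratio was 575 (exact 95% interval 103 to 22753), with an edgeR adjusted p of 3.14e-15 (fitted log2 8.71), and the fitted value was 10.54 without lone replicate C. Ctgf, the connective tissue growth factor gene (chromosome 10, 24595442 to 24598683), had 33, 33 and 42 counts in coculture and 0 in every lone library. Its level of 2.31, 2.11 and 2.47 CPM in coculture was at least 37.2-fold higher (adjusted p = 1.48e-08). Among their relatives Wisp1 was at least 63.4-fold higher, with 63, 64 and 57 counts in coculture and 0 alone, whereas Nov had 0 counts in all libraries and Wisp2 and Wisp3 were too low to test. Cyr61 held 78.5% ± 2.35 of CCN family FPKM in coculture.

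Genes of the pathway that drives Cyr61 and Ctgf ranged from absent to well expressed in lone RAW264.7 cells. Stk3, Stk4, Mob1a and Nf2 averaged 32.9 to 376 CPM alone, whereas Yap1, Tead1 and Tead4 had no count alone, Wwtr1 had 9 and Tead2 had 16 over the 3 libraries. Lats2, Amotl2 and Wwc1 lay between, at means of 8.18, 2.11 and 0.927 CPM alone. Yap1 had 152, 226 and 142 counts in coculture and 0 in every lone library (at least 179-fold higher). Tead1 had 278, 278 and 283 counts in coculture and Tead4 59, 63 and 72, and both had 0 alone (at least 289-fold and 66.9-fold higher). Wwtr1, which encodes TAZ, had 104, 127 and 122 counts in coculture and 5, 0 and 4 alone, a 38.9-fold rise whose log2 value of 5.28 ranged from 4.69 without lone replicate B to 5.91 without lone replicate A. Tead2 had 30, 39 and 42 counts in coculture and 4, 4 and 8 alone, a 7.03-fold rise (adjusted p = 2.21e-06). Amot, which encodes the YAP-binding protein angiomotin, was at least 109-fold higher, at 6.81 ± 1.47 CPM against 0 counts alone.

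Upstream of YAP, Stk4, the kinase MST1, was at 174 ± 1.67 CPM in coculture and 172 ± 8.55 CPM alone (log2 0.01, SE 0.047, adjusted p = 0.896). Mob1a, a kinase activator, was at 368 ± 13.5 CPM in coculture and 376 ± 4.08 CPM alone (log2 -0.03, SE 0.040, adjusted p = 0.618). Nf2, which encodes merlin, an upstream activator of the kinases, fell 1.31-fold to 244 ± 8.51 CPM in coculture, against 319 ± 16.9 CPM alone (adjusted p = 1.32e-07). Stk3, the kinase MST2, rose 1.17-fold (adjusted p = 0.0180), a call lost without cocultured replicate B (0.0863) or lone replicate A (0.0764) and in the DESeq2 Wald test (0.0619). Elsewhere on the pathway list, Wwc1 had 365, 473 and 461 counts in coculture and 14, 14 and 17 alone, a 29.6-fold rise (edgeR adjusted p = 5.09e-18). Amotl2 rose 10.2-fold to 21.5 ± 2.30 CPM in coculture, against 2.11 ± 0.627 CPM alone (edgeR adjusted p = 1.72e-14). Of the 20 pathway genes 18 were measured, 9 were higher and 1, Nf2, lower, against 21.7% and 15.2% of all genes tested. Of the 18, 4 had at most 3 counts alone, so their direction was fixed. Among the 11 with at least 1 CPM alone, 2 were higher and 1 lower, near the 16.8% and 17.2% of all such genes, with a median log2 change of 0.03 beside -0.02.

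The wider YAP target list followed Cyr61 and Ctgf in part. Of 22 further targets, known largely from human cells, 19 were measured, 13 were higher and 1 lower, against 21.7% and 15.2% of all genes tested, and 5 of the 19 had at most 3 counts alone. Ankrd1, a nuclear ankyrin repeat protein and one of the most used YAP reporters, had 386, 531 and 433 counts in coculture and 0 alone, at least 465-fold higher. Crim1, a transmembrane binder of bone morphogenetic proteins, had 10.6 ± 1.80 CPM in coculture and 0.0998 ± 0.118 CPM alone, a 96.0-fold rise (adjusted p = 1.14e-13) whose log2 value of 6.59 became 8.05 without lone replicate C. Axl, a receptor tyrosine kinase that macrophages use to take up dying cells, had 1639, 1956 and 1921 counts in coculture and 38, 41 and 29 alone, a 52.6-fold rise (adjusted p = 5.41e-23). Nt5e, which encodes the ectonucleotidase CD73, was at least 29.0-fold higher and Foxf2, a forkhead factor of mesenchyme, at least 25.5-fold higher, both from 0 counts alone. Others did not pass the threshold. Dock5, an exchange factor for Rac, was at 92.8 ± 1.92 CPM in coculture and 92.4 ± 4.77 CPM alone (adjusted p = 0.944), and Birc5, the survivin gene, at 78.9 ± 5.32 CPM in coculture and 77.5 ± 5.51 CPM alone (adjusted p = 0.778). Arhgef17 was the target that fell, to 0.572 ± 0.421 CPM in coculture against 1.38 ± 0.233 CPM alone (adjusted p = 0.0221). That call was lost without cocultured replicate B or C or lone replicate A or B (0.0541 to 0.134), in the DESeq2 Wald test (0.108) and in limma on log2(FPKM + 0.1) and log2(FPKM + 1) (0.0657 and 0.174), and its log2 value of -1.30 was -2.02 without cocultured replicate A. Of the 12 targets at 1 CPM or more alone, 6 were higher and 1 was lower, against 16.8% and 17.2% of all such genes (median log2 change 0.40 beside -0.02). Amotl2, which rose, and Lats2, which was not called, stand on this list and on the pathway list.

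**Figure D3:**
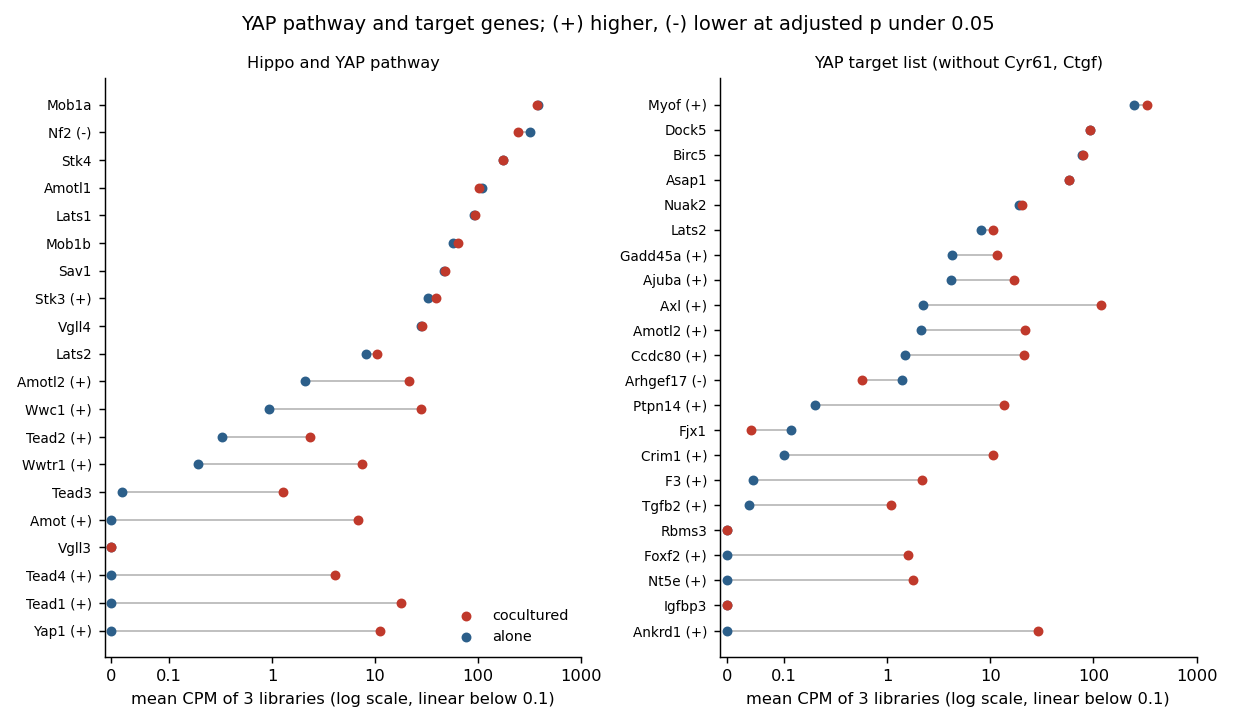
Mean TMM-scaled CPM of 3 libraries (horizontal axis, log scale, linear below 0.1) for the Hippo and YAP pathway (left) and further YAP targets (right) in cocultured RAW264.7 cells (red) and RAW264.7 cells alone (blue), ordered by the level alone. Near the top of the panels, Mob1a and Dock5 differ by less than the spread between libraries, whereas Yap1, Tead1, Tead4 and Ankrd1 at the bottom lie at 0 alone and at 4.13 to 28.8 CPM in coculture.

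In deposited FPKM the members ranged over more than 3 orders of magnitude in coculture. Tpm1 was highest at 20.7 ± 0.623 FPKM, followed by Cyr61 at 5.88 ± 0.740, Cav1 at 4.40 ± 0.164, Cald1 at 2.10 ± 0.0244, Ctgf at 0.801 ± 0.0625, Acta2 at 0.791 ± 0.0574, Tagln at 0.106 ± 0.0477, Tpm2 at 0.0459 ± 0.0399 and Cnn1 at 0.00714 ± 0.0124 FPKM, and Myl9 was listed at 0. In lone cells Tpm1 was at 17.7 ± 0.292 FPKM, Acta2 at 0.554 ± 0.0774 and Tagln at 0.150 ± 0.0816 FPKM, and each of the other 7 averaged under 0.02 FPKM. In coculture the neighbours Ctgf and Acta2 overlapped between libraries, as did Tagln with Tpm2 and Tpm2 with Cnn1, whereas Tpm1, Cyr61, Cav1 and Cald1 were ordered alike in all 3 libraries. The length of Cald1 in the table, 12041 bases, joins the exons of all its forms, which lowers its FPKM relative to that of compact genes such as Cyr61 (2019 bases). The 3 protein-coding genes closest to Tpm1 in log2(FPKM + 0.1) over the 6 libraries were Sord, Parvb and Timm29, with root mean square differences of 0.0377, 0.0447 and 0.0479.

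The 4 members that lone cells nearly lacked were set against the epithelial markers in each cocultured library. The members are not among the 13 renal and simple epithelial markers, and the ratio of their counts to the summed counts of those markers is given in percent. The ratio was 7.45%, 6.55% and 7.03% for Cald1 in cocultured replicates A, B and C. In the same libraries it was 4.66%, 3.92% and 4.04% for Cav1, 3.62%, 3.38% and 2.85% for Cyr61 and 0.686%, 0.539% and 0.684% for Ctgf. With 3 libraries no relation between the measures was tested.

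Of the 13 epithelial markers 8 were measured and higher, against 21.7% of all genes tested. All 8 had at most 3 counts alone, so their direction was fixed. Epcam, Lhx1 and Cdh6 had 0 counts in all libraries. Markers of other cell types were summed in the same way, and their part in the results was not tested. The 10 fibroblast and pericyte markers summed to 2.12 to 3.57 CPM in coculture and 0.413 to 0.692 CPM alone, with Col3a1, Pdgfra and Thy1 at 0 counts in all libraries and Col1a1 at 3 counts over the cocultured libraries. Only Cspg4, a proteoglycan of pericytes, could be tested and was at least 29.3-fold higher, at 1.80 ± 0.564 CPM against 0 counts alone. The 6 defining smooth muscle markers summed to 20.9 to 27.3 CPM in coculture and 1.38 to 2.22 CPM alone, nearly all of it Smtn. The 6 endothelial markers summed to 3.64 to 6.35 CPM in coculture and 3.24 to 3.46 CPM alone, and the 7 melanocytic and lymphangioleiomyomatosis markers to 1.75 to 2.49 CPM in coculture and 0.692 to 1.99 CPM alone, with Mlana, Tyr, Dct and Pgr at 0 counts throughout and Vegfd, a lymphatic growth factor, at 45 counts over the cocultured libraries and 0 alone. Esr1 had 38 counts over the cocultured libraries and 39 alone (edgeR adjusted p = 0.980), and Pmel, too low to test, had 18 and 15.

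**Figure D4:**
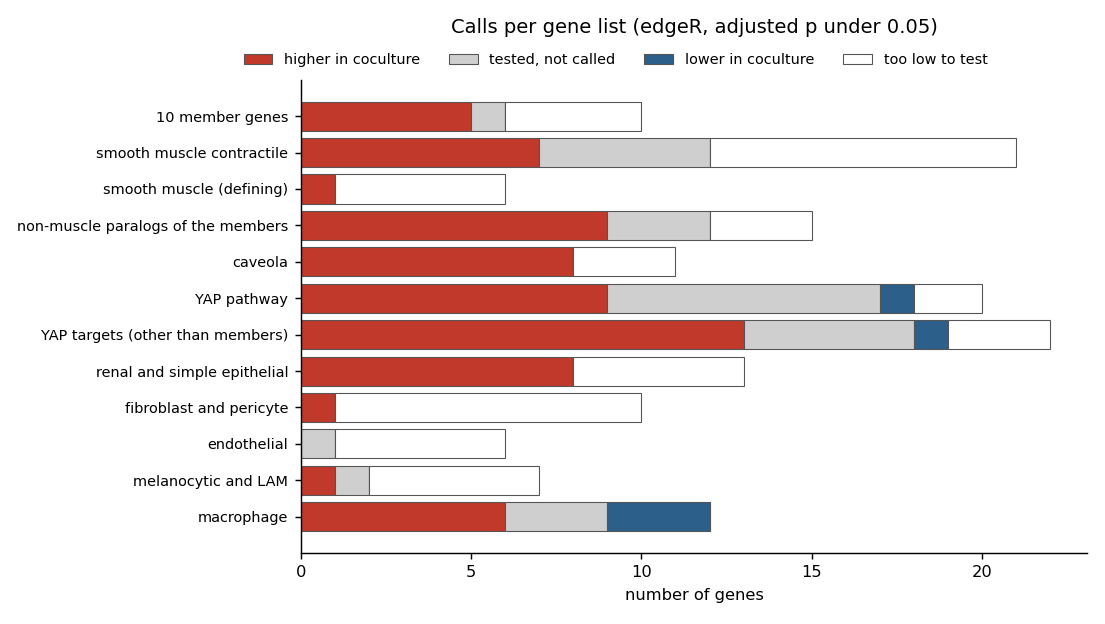
Number of genes (horizontal axis) called higher (red), called lower (blue), tested but not called (grey) or too low to test (white) in cocultured RAW264.7 cells against RAW264.7 cells alone, per gene list, at an edgeR adjusted p under 0.05. All 8 measured caveolar genes are higher, whereas 5 of the 6 defining smooth muscle markers are too low to test.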

How the data were processed

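RNA-seq of 6 libraries was analysed from deposited tables. The authors deposited raw counts per gene and FPKM values, per the file headers; each FPKM value equalled the count over gene length and library total, times 0.996 to 1.00 per library. Per the submitters' processing notes, mm10, edgeR 3.22.5, featureCounts 1.5.0-p3, HISAT2 2.0.5 and DESeq2 1.20.0 were used, with no role given. 0 rows named no gene.

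The edgeR 4.0.16 quasi-likelihood test (R 4.3.3, TMM, filterByExpr, group term) was fitted to all genes and adjusted over the 12972 tested. It was tested on simulated data first. Standard errors were derived from the F statistic (log2 fold change divided by root F). Genes with no count alone have lower bounds set by 3 counts over the group. For genes with 1 to 3, the count ratio is given with its conditional 95% interval (exact binomial). Both cover counting error only. Alternatives were other scalings and filters, a replicate block, left-out libraries, DESeq2 1.42.0, limma-voom (limma 3.58.1) and limma on log2 FPKM with pseudocounts of 1 and 0.1.

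Replicates were not repeats of 1 library, as all pairs differed beyond sampling noise (chi-square per degree of freedom 3.10 to 4.82). Of 100-base windows of the members' GENCODE M21 transcripts, 0 occurred in the same direction in transcripts of other genes. The reverse complement was not searched, so overlap on the other strand, as for Tagln, was not covered. The deposited coordinates of 9 of 10 members equalled GENCODE M21.

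Members and lists were chosen with earlier results of these data known. All members were named. From each list the rule took up to 4 called genes of largest fitted log2 change with at least 1 CPM (for genes with no count alone the fitted value depends on the prior count, and an order by lower bounds would differ), 2 uncalled genes of highest level, and Yap1, Wwtr1, Tead1, Srf, Myocd, Myh11, Cavin1, Cav2, Tpm3, Tpm4, Actb and Ankrd1. Further genes, such as Vcl, Pdlim7, Ehd2, Nf2, Stk3, Wwc1, Amotl2, Lats2, Arhgef17, Axl, Tead2 and Tagln2, were named after their values were seen.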

Additional observations from a re-analysis of the deposited data

How the results depend on the processing

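Of the 10 genes, 5 were higher in coculture in the edgeR fit, and 4 to 6 across all alternatives, with 0 lower in each. The count was 6 where limma on log2(FPKM + 1) and log2(FPKM + 0.1) called Acta2, at log2 changes of 0.21 and 0.45, and 4 where genes needed a mean FPKM of at least 1, which leaves out Ctgf and Acta2. That limit gave 1707 genes higher, against 2819 in the edgeR fit, with fewer genes tested. Leaving out 1 library gave 2586 to 2837 genes higher and 1557 to 1767 lower. The replicate block gave 2815 higher and 1951 lower, and changed the call of Srf among the named genes. Same-lettered libraries deviated together with a correlation of 0.0305, 0.0520 and 0.0870 across genes for A, B and C, so the letters were not taken as pairs, although each library correlated best with its own letter. Log2 values near 0 changed sign for Dock5, to -0.0027 with upper quartile scaling and -0.00034 with no filter. With a library left out, they ranged from -0.021 to 0.051 for Dock5, -0.033 to 0.071 for Birc5, -0.024 to 0.048 for Mkl1 and -0.018 to 0.049 for Stk4. Fitted values of Cald1, Cav1, Cyr61, Fhl2 and Cavin1 rest on 1 to 3 counts alone, and without the lone library that held them (without lone replicate B for Fhl2 and Cavin1) they grew, to 9.55 for Fhl2 and 10.10 for Cavin1. Tagln, Tpm2, Cnn1 and Myl9 had 10 or fewer counts over the cocultured libraries, which limits the precision of their values. With lower bounds and count ratios in place of fitted values for genes with at most 3 counts alone, the median log2 change of the 6 measured members was 7.19 in place of 8.45.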

Other observations

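Among the 343 genes with at most 3 counts alone and at least 100 counts in coculture, Cyr61 ranked 32nd by mean FPKM in coculture, Cav1 53rd, Cald1 104th and Ctgf 222nd. Prl2c2, a proliferin gene whose near-identical relatives make its reads uncertain, was highest at 57.1 FPKM, followed by Krt8 at 46.8 FPKM, Sprr1b, a small proline-rich protein of epithelia, at 37.5 FPKM, and Cdh16 at 32.2 FPKM.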
